A study of Rattus norvegicus with 24 samples.

Results

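Mitochondrial fatty acid oxidation was followed through 10 genes of rat liver that encode the carnitine shuttle (Cpt1a, Slc25a20, Cpt2), the straight-chain acyl-CoA dehydrogenases (Acadvl, Acadl, Acadm, Acads), the subunits of the trifunctional protein (Hadha, Hadhb) and the dehydrogenase that hands the electrons on (Etfdh). The genes were chosen by symbol and not by a rule on their values. Earlier results of these data were known at the time, so the choice was not independent of the data. All 10 of the 10 listed were found among the 17245 genes with a probe set paired to 1 symbol. Hadha had 2 probe sets, of which the one with the higher mean was used, and each of the other genes had 1.

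Liver RNA came from 24 male Wistar rats with 1 array per animal. The groups were 6 animals fed 5% protein for 1 week, 6 fed 20% protein for 1 week, 6 fed 5% protein for 4 weeks and 6 fed 20% protein for 4 weeks. The labels name no other treatment, allele or agent in these animals, and give neither their age nor the rest of the diet. The titles give the percentages and weeks used here, whereas a code in each description reads 4 or 18 for the protein and the design text mentions 4 weeks alone, so both the percentages and the times are in some doubt.

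Long-chain fatty acids enter the mitochondrial matrix as carnitine esters: Cpt1a makes the ester at the outer membrane, the carrier Slc25a20 exchanges it for free carnitine across the inner membrane, and Cpt2 turns it back into acyl-CoA. Each turn of the oxidation spiral then starts with an acyl-CoA dehydrogenase matched to the chain length, and for long chains the membrane-bound trifunctional protein carries out the remaining steps, with hydratase and hydroxyacyl-CoA dehydrogenase activity on the alpha subunit (Hadha) and thiolase activity on the beta subunit (Hadhb). Electrons taken by the dehydrogenases pass through the electron transfer flavoprotein to Etfdh and so to ubiquinone. In liver the pathway supplies ATP and acetyl-CoA for ketone bodies, and low activity is a known route to fat accumulation.

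The 10 genes did not move as a block. Values are the authors' normalised intensities, differences are log2 of 5% over 20% protein with standard errors, and a gene was called at an adjusted p below 0.05 (limma, Benjamini-Hochberg over all 17245 genes). At 1 week 1 of the 10 genes, Hadhb, was higher on 5% protein and 0 were lower, while 4.3% of all genes were called, 1.86% higher and 2.44% lower; 3 of the 10 had an unadjusted p below 0.05. At 4 weeks 2 genes were higher (Hadhb and Cpt2) and 2 were lower (Acadm and Acadvl), while 25.8% of all genes were called, 13.4% higher and 12.4% lower. The median difference over the 10 genes was -0.02 at 1 week and 0.02 at 4 weeks, against -0.01 over all genes at both times. Hadhb was the only member called at both times.

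**Figure D1:**
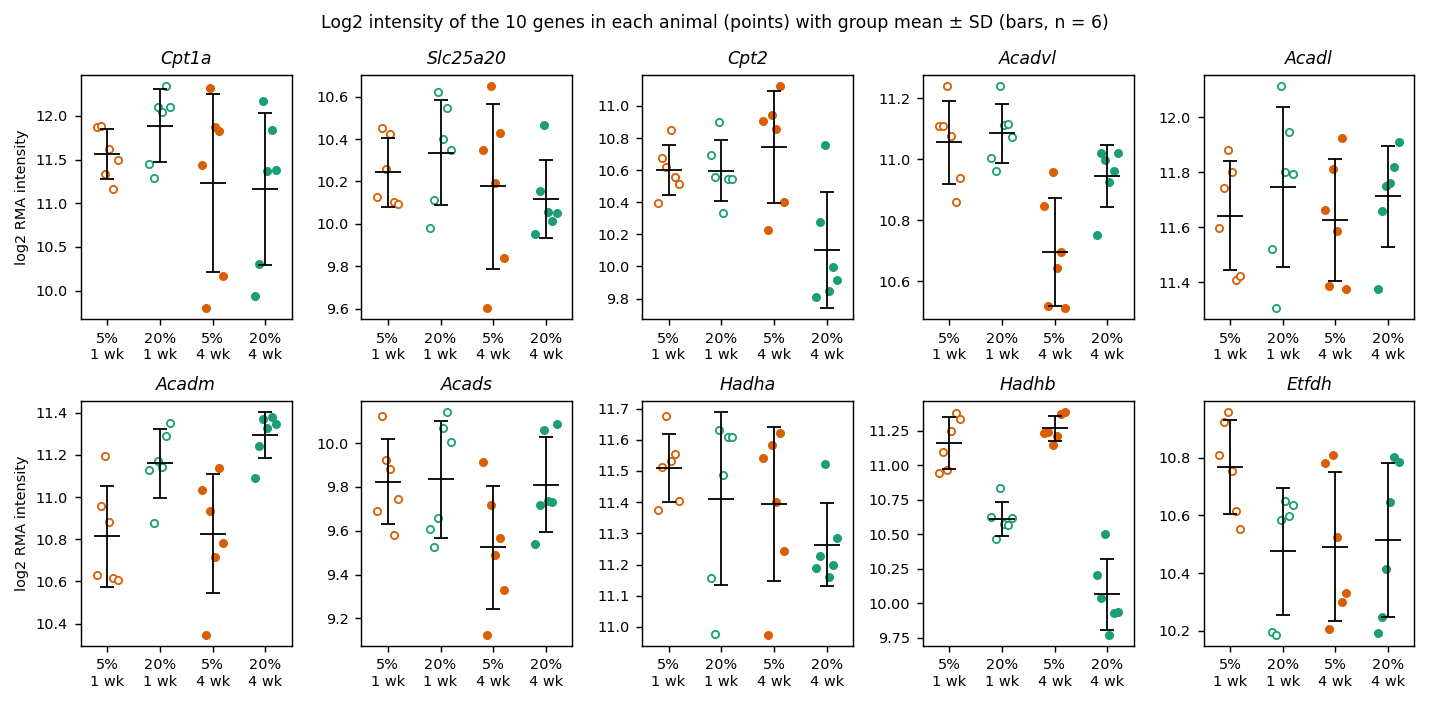
Log2 intensity of each of the 10 genes, with 1 point per animal and the mean ± SD of each diet and week group (n = 6). Hadhb is the only panel in which the 6 animals on 5% protein lie above the 6 on 20% protein at both times, and Cpt1a has the widest spread at 4 weeks.

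**Figure D2:**
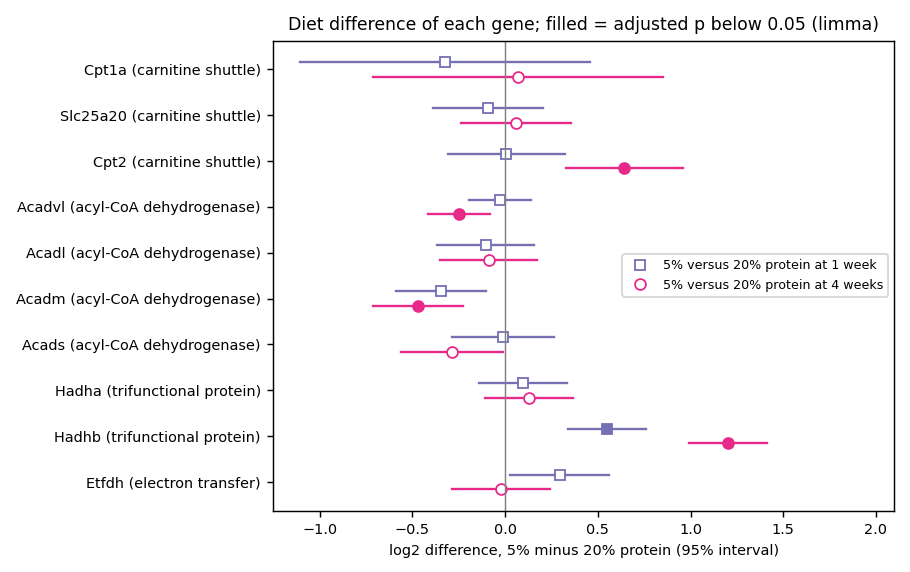
Log2 difference of 5% minus 20% protein for each gene, with its 95% interval, at 1 week (squares) and 4 weeks (circles); filled symbols had an adjusted p below 0.05. Hadhb lies at 0.55 and 1.20, Cpt2 is filled at 4 weeks only, and Acadm and Acadvl lie below 0 at 4 weeks.

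Array medians lay between 42.4 and 45.5, and within a group the arrays had correlations of 0.984 to 0.995 over the probe sets. The marker counts that follow stand beside 25.8% of all genes called at 4 weeks (13.4% higher, 12.4% lower) and 4.3% at 1 week. Of 8 hepatocyte markers listed, 7 were measured, and their summed intensity was 53610 to 65640 in livers on 5% protein for 4 weeks and 62490 to 72710 in those on 20% protein. At 4 weeks 4 of these 7 markers were called lower on 5% protein and 0 higher (median -0.17), with Cps1 lower by the largest amount (-0.71 ± 0.10), whereas 0 of 7 were called at 1 week (1 had an unadjusted p below 0.05). Of 9 Kupffer cell markers 8 were called lower at 4 weeks (median -0.59), with a summed intensity of 3511 to 4450 on 5% protein and 5187 to 8801 on 20% protein. Of 5 erythroid markers 3 were called lower on 5% protein at 1 week, with summed intensities of 1413 to 6430 on 5% and 5218 to 11540 on 20% protein, and 2 at 4 weeks. Other lists moved either way at 4 weeks: of 5 cholangiocyte markers 2 were called higher, Epcam (1.55 ± 0.31) and Sox9 (0.66 ± 0.13), with a summed intensity of 293.6 to 704.4 on 5% protein and 249 to 361.6 on 20% protein. Cftr (0.35 ± 0.15), Krt7 (-0.02 ± 0.11) and Krt19 (-0.52 ± 0.25) were not called. The group means of Cftr (log2 of 4.475 to 4.825) and Krt7 (5.034 to 5.22) lay below the array medians. These genes are thus not shown to be above background. Krt19 had a difference below 0 beside the higher Epcam and Sox9, so the list did not move as one. Of 7 stellate cell and fibroblast markers 2 were called lower, Col3a1 (-1.05 ± 0.21) and Reln (-0.39 ± 0.13), with a summed intensity of 2170 to 3058 on 5% protein and 2565 to 5256 on 20% protein. Among 5 endothelial and 5 lymphocyte markers 1 each was called lower (Cdh5 and Ptprc), and among 4 adipocyte markers 1 was called higher (Cidea). The part of these shifts in the results below was not tested, and in whole liver fewer cells of a type and less RNA per cell cannot be told apart.

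The titles carry animal numbers that fall into 4 runs. At 1 week the first run (49 to 54) and the second (74 to 79) each hold 3 animals on 5% and 3 on 20% protein; at 4 weeks the first run (22 to 32) holds 5 on 5% and 2 on 20%, and the second (59 to 73) holds 1 on 5% and 4 on 20%. Values within runs stand beside the results they touch; they come from 1 fit of all 24 animals, so that the lone animal on 5% protein in the second run at 4 weeks is taken to vary like the others.

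Hadhb, the beta subunit of the trifunctional protein, was the member called higher on 5% protein at both times. At 1 week its intensity was 1970 at the lowest, 2312 at the median and 2659 at the highest on 5% protein, against 1413, 1548 and 1828 on 20% protein. Every animal on 5% protein was above every animal on 20% protein, as for 2.56% of all genes in one direction or the other. The difference was 0.55 ± 0.10 (1.46-fold, adjusted p = 0.00239, limma). At 4 weeks the intensity was 2271 at the lowest, 2418 at the median and 2679 at the highest on 5% protein, against 874.3, 1017 and 1451 on 20% protein. Again no animal of one diet fell within the range of the other, and 12.4% of all genes had groups that did not overlap. The difference was 1.20 ± 0.10 (2.30-fold, adjusted p = 7.18e-09), and Hadhb stood at rank 42 of 17245 genes by p. Within runs the differences were 0.36 ± 0.13 (adjusted p = 0.114) in the first and 0.73 ± 0.13 (adjusted p = 0.0019) in the second run at 1 week, and 1.12 ± 0.14 and 1.35 ± 0.18 in the first and second runs at 4 weeks, both called. The first run at 1 week was thus the only one of the 4 in which Hadhb was not called.

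The diet effect on Hadhb was larger at 4 weeks than at 1 week by 0.66 ± 0.14 (adjusted p = 0.0111, limma), a test in which 5.75% of all genes were called and 3.54% were called higher. It was the only one of the 10 genes called in that test. Between the weeks the diets behaved as follows. At 4 weeks against 1 week Hadhb was lower on 20% protein (-0.55 ± 0.10, adjusted p = 0.00289), with 1 animal at 4 weeks (1451) above the lowest at 1 week (1413). On 5% protein the difference between 4 weeks and 1 week was 0.11 ± 0.10 (adjusted p = 0.612), with a 95% interval of -0.10 to 0.32. Among all genes 2.52% were called between the weeks on 20% protein, with 1.5% lower, and 8.29% on 5% protein. The weeks share no run, so with run as a covariate the fit sets the first run at 4 weeks against the first run at 1 week. That difference on 20% protein was -0.48 ± 0.14 and was not called (limma, adjusted p = 0.186). It is not a difference between weeks freed of run, and week and run cannot be told apart.

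Hadha, the alpha subunit that works in the same complex, was called in none of the comparisons. At 1 week its intensity was 2654 at the lowest, 2942 at the median and 3271 at the highest on 5% protein, against 2016, 2998 and 3174 on 20% protein. At 4 weeks the values were 2013, 2844 and 3151 on 5% protein, against 2288, 2376 and 2939 on 20% protein. The diets overlapped at both times, with differences of 0.10 ± 0.12 (adjusted p = 0.749) and 0.13 ± 0.12 (adjusted p = 0.465). The 95% interval at 4 weeks, -0.11 to 0.37, lies wholly below that of Hadhb, 0.99 to 1.41. The second Hadha probe set, with a mean log2 intensity of 8.40 against 11.39 for the one used, gave 0.05 ± 0.15 at 1 week and 0.10 ± 0.15 at 4 weeks, so that both probe sets of the gene stood without a call.

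The subunits were also compared within each array, as log2 Hadhb minus log2 Hadha. Only the shift of this value between diets can be read, since the level of a probe set cannot be set against that of another. At 4 weeks it ran between -0.43 and 0.27 on 5% protein and between -1.39 and -0.98 on 20% protein. The groups did not overlap, and the mean differed by 1.07 (exact permutation test over 924 splits, two-sided p = 0.00216, the smallest the design allows; adjusted over the 2 times 0.00433). At 1 week it ran between -0.71 and -0.07 on 5% protein and between -1.04 and -0.51 on 20% protein, with a difference in means of 0.45 and overlap (exact permutation p = 0.0108, adjusted 0.0108). In the first run at 1 week the difference was 0.09 (exact permutation p = 0.50) and in the second 0.81, where 3 against 3 animals can give no p below 0.10. At 4 weeks it was 0.91 in the first run (5 against 2 animals, exact permutation p = 0.0476, the smallest that run allows) and 1.40 in the second, with 1 animal on 5% protein. The shift between the subunits at 1 week was thus larger in the second run than in the first, a difference that was not tested.

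**Figure D3:**
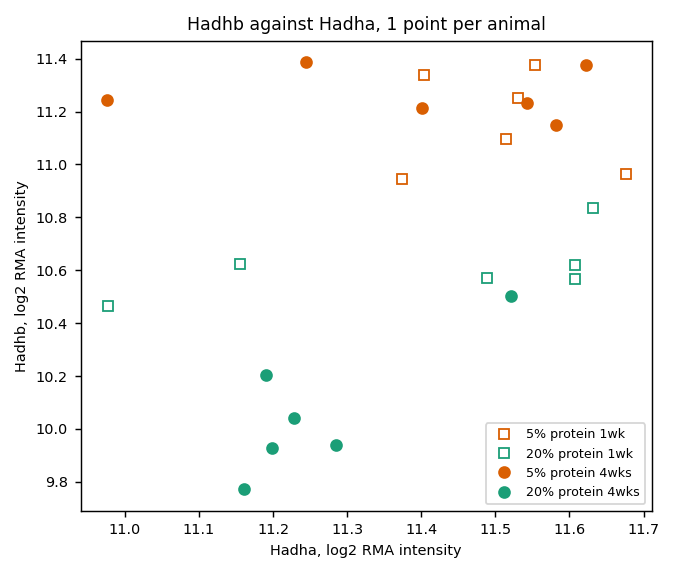
Log2 intensity of Hadhb (vertical axis) against Hadha (horizontal axis), with 1 point per animal and the groups by colour and marker. At 4 weeks the 6 animals on 5% protein lie between 2271 and 2679 in Hadhb intensity (2 to the power of the axis value) and the 6 on 20% protein between 874.3 and 1451, over a shared range of Hadha.

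Hadha and Hadhb are neighbours on chromosome 6, transcribed away from each other. In RefSeq's annotation of GRCr8 their start sites are 301 bases apart, at 31907801 on the plus strand for Hadha and at 31907500 on the minus strand for Hadhb. Windows of 250 bases before to 50 after each start site, chr6:31907551-31907850 (plus strand) for Hadha and chr6:31907451-31907750 (minus strand) for Hadhb, therefore overlap in 200 bases, with 53.5% GC. The windows are printed because 2 genes with unequal diet effects share this stretch; each is read 5′ to 3′ on the strand of its gene, and capitals mark the shared bases, which appear in one window as the reverse complement of the other.
Hadha: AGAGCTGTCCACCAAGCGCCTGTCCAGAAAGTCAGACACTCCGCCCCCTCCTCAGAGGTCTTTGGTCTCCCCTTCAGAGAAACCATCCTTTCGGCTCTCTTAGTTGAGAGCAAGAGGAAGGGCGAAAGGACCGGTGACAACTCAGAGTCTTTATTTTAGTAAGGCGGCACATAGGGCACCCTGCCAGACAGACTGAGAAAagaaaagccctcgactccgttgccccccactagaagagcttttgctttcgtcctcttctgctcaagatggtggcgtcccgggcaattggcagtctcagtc
Hadhb: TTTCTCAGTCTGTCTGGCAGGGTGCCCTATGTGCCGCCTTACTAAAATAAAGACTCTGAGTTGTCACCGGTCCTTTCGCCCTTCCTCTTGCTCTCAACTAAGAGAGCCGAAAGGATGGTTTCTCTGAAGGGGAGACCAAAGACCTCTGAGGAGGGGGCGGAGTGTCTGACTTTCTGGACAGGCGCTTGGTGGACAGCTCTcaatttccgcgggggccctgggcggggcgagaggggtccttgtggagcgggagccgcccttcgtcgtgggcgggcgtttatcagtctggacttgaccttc
Motifs were searched on both strands in these windows and in those of the other members that have one (9 of 10; Acadl has none in the table). The GC box GGGCGG was found 4 times in the Hadhb window and once in the Hadha window, where it is the same stretch of bases as the Hadhb match at -96 to -91, and 33.1% of 33469 rat promoter windows hold at least 1; in all, 7 of the 9 member windows held it. The nuclear receptor half-site AGGTCA, held by 16.2% of windows, was found in the Hadhb window at 43 to 48 (minus strand of the gene) and in that of Acadvl at -169 to -164 and -17 to -12. Neither a direct repeat of it with 1 base between (0.0538% of windows) nor the amino acid response element core TGATGNAA (3.98%) was found in any of the 9 windows. The CCAAT box (CCAAT, 37.5% of windows) was found in the windows of Hadha and Acads, and the site of the factor NRF1 (4.25%) in that of Etfdh. These letters are a description of the windows and not sites of binding.

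Other genes that share a start region in this way were looked at after the values of Hadha and Hadhb were seen, so the comparison is a description. Of the head-to-head pairs with overlapping windows, 460 had both genes measured, Hadha and Hadhb among them. At 4 weeks both partners were called in the same direction in 45 pairs and in opposite directions in 13, 1 partner was called in 206 and neither in 196. The median gap between the partners' diet differences was 0.26. Hadhb and Hadha had a gap of 1.07, and 10 pairs (2.17%), this pair included, had a gap at least as large. At 1 week the gap of Hadhb and Hadha was 0.45, and 11.1% of pairs, again with this pair included, had a gap at least as large.

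Cpt2, the enzyme that releases acyl-CoA in the matrix, was called higher on 5% protein at 4 weeks and not at 1 week. At 4 weeks its intensity was 1197 at the lowest, 1889 at the median and 2236 at the highest on 5% protein, against 899.1, 994.5 and 1731 on 20% protein. The groups overlapped: animal 63 on 20% protein (1731) was above 2 animals on 5% protein (1197 and 1353), and animal 30 on 20% protein (1238) was above the lower of these. The difference was 0.64 ± 0.15 (1.56-fold, adjusted p = 0.00257). At 1 week it was 0.01 ± 0.15, with intensities of 1345 to 1842 on 5% protein and 1292 to 1915 on 20% protein. The change in diet effect between the weeks, 0.64 ± 0.22, did not pass (adjusted p = 0.080), and neither did the difference between 4 weeks and 1 week on 20% protein (-0.50 ± 0.15, adjusted p = 0.0871); without animal 63 both passed, with adjusted p of 0.0229 and 0.0125. Within runs at 4 weeks the difference was 0.77 ± 0.22 (adjusted p = 0.0207) in the first and 0.27 ± 0.30 (adjusted p = 0.648) in the second.

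Cpt1a, which makes the acylcarnitine and is the step inhibited by malonyl-CoA, had the largest standard error of the 10 genes (0.38). At 4 weeks its intensity was 890.8 at the lowest, 3201 at the median and 5111 at the highest on 5% protein, against 982.9, 2647 and 4619 on 20% protein. The groups overlapped almost completely, and the difference of 0.07 ± 0.38 leaves a 95% interval of -0.72 to 0.85. At 1 week the intensities were 2295 to 3774 on 5% protein and 2499 to 5206 on 20% protein, with a difference of -0.32 ± 0.38 (adjusted p = 0.744). The runs at 4 weeks pointed in opposite directions: in the first the difference was 1.33 ± 0.42 (adjusted p = 0.0353), where both animals on 20% protein were low (982.9 and 1267), 1 of the 5 on 5% protein was lower still (890.8) and the other 4 lay between 2766 and 5111, and in the second -1.52 ± 0.56 (adjusted p = 0.0842), where the single animal on 5% protein was low (1147) and the 4 on 20% protein lay between 2638 and 4619. The difference between these effects, -2.85 ± 0.70, did not pass over all genes (adjusted p = 0.147), a test in which 5 genes (0.029%) were called.

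Slc25a20, the carnitine-acylcarnitine carrier, was called in no comparison. Its intensity at 4 weeks was 776.9 to 1609 on 5% protein and 991.3 to 1414 on 20% protein (0.06 ± 0.14), and at 1 week 1092 to 1400 on 5% protein and 1010 to 1579 on 20% protein (-0.09 ± 0.14). Both 95% intervals lay within -0.39 and 0.36, so that the carrier between Cpt1a and Cpt2 showed no difference beyond its error.

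Among the acyl-CoA dehydrogenases, Acadm, which acts on medium chains, was lower on 5% protein at 4 weeks. Its intensity was 1303 at the lowest, 1860 at the median and 2256 at the highest on 5% protein, against 2181, 2588 and 2664 on 20% protein. A single animal on 5% protein (2256) was above the lowest on 20% protein (2181). The difference was -0.47 ± 0.12 (0.72-fold, adjusted p = 0.00408), and it was -0.33 ± 0.17 in the first and -0.57 ± 0.22 in the second run, neither called alone. In week 1 the intensities were 1560 to 2347 on 5% protein and 1881 to 2612 on 20% protein, and the difference of -0.35 ± 0.12 did not pass (adjusted p = 0.0981). It was -0.13 ± 0.16 in the first and -0.56 ± 0.16 (adjusted p = 0.0348) in the second run at 1 week, and it passed without animal 54 on 5% protein (-0.42, adjusted p = 0.0334).

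Acadvl, the very-long-chain dehydrogenase of the inner membrane, was lower on 5% protein at 4 weeks by a smaller amount. Its intensity was 1461 at the lowest, 1631 at the median and 1992 at the highest on 5% protein, against 1723, 2018 and 2079 on 20% protein. Animal 26 on 5% protein (1992) was above 2 animals on 20% protein (1723 and 1945), and animal 22 (1840) above the lower of these. The difference was -0.25 ± 0.08 (0.84-fold, adjusted p = 0.0235). The call was lost without animal 23 or 59 on 5% protein or animal 73 on 20% protein (adjusted p = 0.0639, 0.0664 and 0.0505), when only the 4 week groups were fitted (0.0549) and with run as a covariate (0.0511). Within runs at 4 weeks it was -0.15 ± 0.11 (adjusted p = 0.408) in the first and -0.46 ± 0.15 (adjusted p = 0.044) in the second. At 1 week the difference was -0.03 ± 0.08. Acadvl was also the only member called between the weeks on 5% protein, at -0.36 ± 0.08 for 4 weeks minus 1 week (limma, adjusted p = 0.00787). Among all genes 4.13% were called lower there. Acads (-0.30 ± 0.13) and Etfdh (-0.28 ± 0.13) also had an unadjusted p below 0.05 but were not called. On 20% protein the difference of Acadvl between the weeks was -0.14 ± 0.08 (adjusted p = 0.408). The Acadvl time effects of the diets differed by -0.22 ± 0.11 (adjusted p = 0.277). Here too week and run cannot be told apart.

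The other dehydrogenases were not called for diet. Acads, which acts on short chains, had 558.6 to 966.4 on 5% protein and 743.0 to 1089 on 20% protein at 4 weeks, a difference of -0.29 ± 0.13 (adjusted p = 0.125) that passed only without animal 22 on 5% protein (adjusted p = 0.0463). At 1 week its difference was -0.01 ± 0.13. Acadl, the long-chain enzyme, had 2657 to 3884 on 5% protein and 2659 to 3848 on 20% protein at 4 weeks (-0.09 ± 0.13), and 2721 to 3774 on 5% protein and 2532 to 4436 on 20% protein at 1 week (-0.11 ± 0.13). At 4 weeks all 4 dehydrogenases had differences below 0 and 2 were called lower, while 25.8% of all genes were called and 12.4% called lower. In the first run at 4 weeks the difference of Acadl was 0.16 ± 0.17. A shift shared by the dehydrogenases was not tested.

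Etfdh, which passes electrons to ubiquinone, was not called at either time. At 1 week its intensity was 1502 to 1990 on 5% protein and 1165 to 1607 on 20% protein, with a difference of 0.29 ± 0.13 (adjusted p = 0.220). Within runs the difference was 0.57 ± 0.15 (adjusted p = 0.0198) in the first and 0.01 ± 0.15 in the second, and the difference between the runs did not pass (adjusted p = 0.106; 7.29% of all genes were called). At 4 weeks the intensity was 1181 to 1796 on 5% protein and 1169 to 1785 on 20% protein, almost the same range, with a difference of -0.02 ± 0.13.

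**Figure D4:**
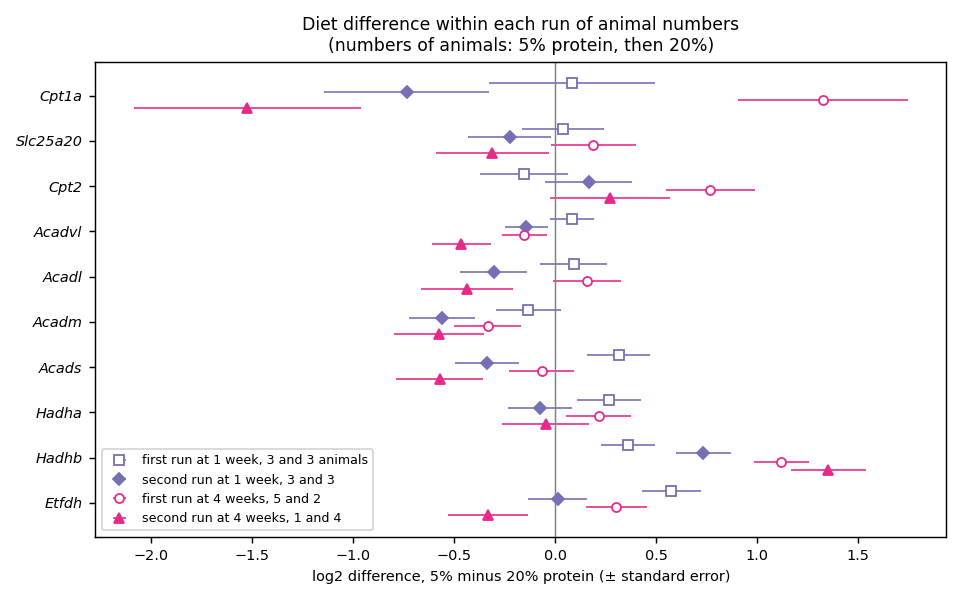
Log2 difference of 5% minus 20% protein within each run of animal numbers, with its standard error and the numbers of animals in the legend. Hadhb lies between 0.36 and 1.35 in all 4 runs, whereas Cpt1a lies at 1.33 in the first and at -1.52 in the second run at 4 weeks.

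Within runs the median over the 10 genes was 0.09 in the first and -0.18 in the second run at 1 week, and 0.20 in the first and -0.38 in the second at 4 weeks, so that it changed sign between runs at both times. In the first run at 4 weeks 3 members were higher (Hadhb, Cpt2 and Cpt1a; 15.9% of all genes called) and in the second 1 was higher (Hadhb) and 1 lower (Acadvl; 12.3% of all genes called). In the first run at 1 week 1 member was higher (Etfdh; 7.57% of all genes called), and in the second 1 was higher (Hadhb) and 1 lower (Acadm; 8.49% of all genes called). In the 1 week animals the diets also lay in different well rows, so that well row and diet cannot be told apart there.

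After group means were removed, log2 intensities of the 9 genes other than Hadhb were correlated with each other over the 24 animals, with Pearson's r between 0.08 and 0.85 over 36 pairs and a median of 0.67. The 9 pairs that include Hadhb had r between -0.43 and 0.46, with a median of -0.07. The animals share arrays, runs and normalisation across all these pairs, and the values are a description. Among genes outside the 10, those most like each member by Pearson's r over the 24 animals, group differences included, were Abcb1a (0.928), Rps14 (0.927) and Ablim1 (0.924) for Hadhb. For Hadha they were Ehhadh (0.857), Vwa8 (0.836) and Decr1 (0.836), of which Ehhadh is a peroxisomal and Decr1 a mitochondrial enzyme of fatty acid oxidation. For Slc25a20 they were Acad11 (0.915), Decr1 (0.877) and Ppp3ca (0.842), and for Cpt1a Ptpa (0.770), Pank1 (0.768) and Abcd3 (0.756). For Cpt2 they were Hsdl2 (0.863), Chd1l (0.838) and Impa2 (0.825). For the dehydrogenases the leading genes were Tmem14c (0.921), Tbc1d2b (0.916) and Hsd17b4 (0.890) for Acadvl, and RGD1310271 (0.900), Esrrg (0.883) and Hpn (0.875) for Acadm. Acads was followed by Gusb (0.891), Hoga1 (0.864) and Ifi35 (0.861), Acadl by Itgb5 (0.824), Tns1 (0.815) and Klc4 (0.812), and Etfdh by Larp1b (0.870), Nr5a2 (0.863) and Utrn (0.843).

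The steps around the 10 genes were read from lists of genes with known roles. Counts called in them stand beside 25.8% of all genes called at 4 weeks (13.4% higher, 12.4% lower) and 4.3% at 1 week. Supply of substrate to the shuttle moved both ways at 4 weeks: of 12 measured genes of fatty acid uptake and activation, 2 were higher on 5% protein and 3 lower, with a median of -0.27 against -0.01 over all genes. The bile acid and very-long-chain acyl-CoA synthetase Slc27a5 (-1.34 ± 0.22), the fatty acid binding protein Fabp1 (-0.79 ± 0.14) and the long-chain synthetase Acsl1 (-0.63 ± 0.16) were lower, and the medium-chain synthetase Acsm5 (0.88 ± 0.21) and Acsl4 (0.39 ± 0.12) were higher. At 1 week 0 of the 12 were called by limma (2 had an unadjusted p below 0.05).

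Of the remaining genes of the carnitine system 5 were measured, and at 4 weeks 3 were higher on 5% protein and 0 were lower (median 1.14). At 1 week 0 were called (1 had an unadjusted p below 0.05). Cpt1b, the muscle form of the outer-membrane transferase, had an intensity of 119.4 at the lowest, 426.7 at the median and 1638 at the highest on 5% protein, against 39.83, 44.14 and 69.68 on 20% protein. The groups did not overlap and differed by 3.15 ± 0.49 (limma, adjusted p = 3.29e-05). The other 4 measured markers of skeletal muscle, Acta1, Mb, Ckm and Actn3, had differences between -0.62 and -0.09 that were not called. The 5 markers, Cpt1b included, summed to a median of only 168.1 on 20% protein, so these 4 are not shown to be above background either. Whether muscle tissue had a part in the values of Cpt1b was not tested. The values of Cpt1b on 20% protein lie near the array medians and are not shown to be above background, which leaves the size of its difference uncertain. Crat, the acetyl transferase, was higher by 1.78 ± 0.34, and the peroxisomal octanoyl transferase Crot by 1.14 ± 0.23, both with overlap between the diets. At 4 weeks against 1 week Crat was lower on 20% protein (-1.38 ± 0.34, adjusted p = 0.027, limma) and not called on 5% protein (0.38 ± 0.34). Cpt1b was higher on 5% protein (1.91 ± 0.49, adjusted p = 0.0169, limma) and not called on 20% protein (-0.51 ± 0.49). Crot was called between the weeks on neither diet.

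Genes that set malonyl-CoA, the inhibitor of Cpt1a, and the AMPK subunits that control it were split. Of 9 measured, 2 were higher and 1 lower at 4 weeks: malonyl-CoA decarboxylase Mlycd (0.44 ± 0.14) and the AMPK subunit Prkab2 (0.69 ± 0.11) were higher, and the subunit Prkab1 (-0.82 ± 0.12) was lower. Prkab2 on 20% protein, at 38.14 to 50.08, lay near the array medians and is not shown to be above background. Prkab1 was also the only one of the 9 called at 1 week (-0.44 ± 0.12).

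Of 11 other matrix enzymes of the spiral, 0 were higher and 3 lower at 4 weeks, with a median of 0.06, while 25.8% of all genes were called. Echs1, the hydratase for short chains, had 1894 to 2672 on 5% protein and 2589 to 4395 on 20% protein (-0.66 ± 0.16, adjusted p = 0.00361). Hadh, the hydroxyacyl-CoA dehydrogenase for shorter chains, had 2136 to 4412 on 5% protein and 3825 to 4999 on 20% protein (-0.56 ± 0.16, adjusted p = 0.0134), and Hsd17b10 differed by -0.42 ± 0.11. The ranges of the diets overlapped for both Echs1 and Hadh, and more so for Hadh. The thiolase Acaa2, at 0.27 ± 0.12, was not called (adjusted p = 0.0968), and 0 of the 11 were called at 1 week (1 had an unadjusted p below 0.05). Among 6 genes of the electron transfer flavoprotein and FAD supply, Etfb was the only one called at 4 weeks (-0.35 ± 0.08, adjusted p = 0.00101), while its partner subunit Etfa stood at 0.00 ± 0.08.

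Genes of branched-chain and odd-chain acyl-CoA breakdown, some of which, such as the dehydrogenase Ivd, also feed electrons to the flavoprotein, were lower in 5 and higher in 2 of 16 measured at 4 weeks (median -0.18). Ivd (-1.01 ± 0.15), Mcee (-1.07 ± 0.16) and Mmut (-0.50 ± 0.12) were lower, and Hibch (0.61 ± 0.10) and Bckdk, the kinase that switches off branched-chain keto acid oxidation (0.74 ± 0.14), were higher. At 1 week Bckdk (0.50 ± 0.14) and Pccb (0.33 ± 0.08) were higher. Of 2 measured genes of ketone body synthesis, Bdh1 was lower at 4 weeks (-0.28 ± 0.10) and Acat1 was not called. Of 8 peroxisomal genes 1 was higher at 4 weeks, the transporter Abcd2, and 3 were lower, Acox2 (-1.35 ± 0.18), Amacr (-1.12 ± 0.23) and Acox3 (-0.38 ± 0.08). Abcd2 had 48.55 to 167.7 on 5% protein and 11.58 to 35.53 on 20% protein. Its values on 20% protein lie below the array medians and are not shown to be above background, so the size of its difference is not given. Ehhadh, at 0.52 ± 0.25, was not called (adjusted p = 0.128, limma).

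Among 16 measured regulators of the pathway, 3 were higher and 2 lower at 4 weeks (median 0.06). The coactivator Ppargc1a had 160.6 at the lowest, 367.2 at the median and 409.3 at the highest on 5% protein, against 72.98, 117.0 and 147.5 on 20% protein. The groups did not overlap, and it was higher on 5% protein by 1.56 ± 0.28 (adjusted p = 0.000163). Between the weeks Ppargc1a was lower at 4 weeks on 20% protein (-1.05 ± 0.28, adjusted p = 0.041, limma) and not called on 5% protein (-0.14 ± 0.28). In the diet comparison at 4 weeks its partner receptor Esrra (0.32 ± 0.09) and Nrf1 (0.47 ± 0.13) were also higher, and Rxra (-0.48 ± 0.11) and Klf15 (-0.79 ± 0.26) lower. Ppara, the receptor that drives many of these genes in rodent liver, differed by 0.05 ± 0.21 and was not called. At 1 week the mitochondrial deacetylase Sirt3 was the only regulator called (0.91 ± 0.19).

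Of 16 measured targets of that receptor outside the mitochondrial pathway, 6 were higher and 2 lower at 4 weeks, with a median of 0.38. The acyl-CoA thioesterase Acot2 (1.99 ± 0.20) and the hormone gene Fgf21 (3.66 ± 0.54) were higher, and Fabp1 and Cidec (-0.34 ± 0.12) were lower. Fgf21 on 20% protein, at 42.11 to 105.6, reached down to the array medians, which leaves the size of its difference uncertain. The thioesterase Acot1 was also called higher, with 72.95 to 2812 on 5% protein and 11.56 to 14.11 on 20% protein; the values on 20% protein lie below the array medians and are not shown to be above background, so the size of its difference is not given. Fgf21 was the only one called at 1 week (2.21 ± 0.54, adjusted p = 0.0187).

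**Figure D5:**
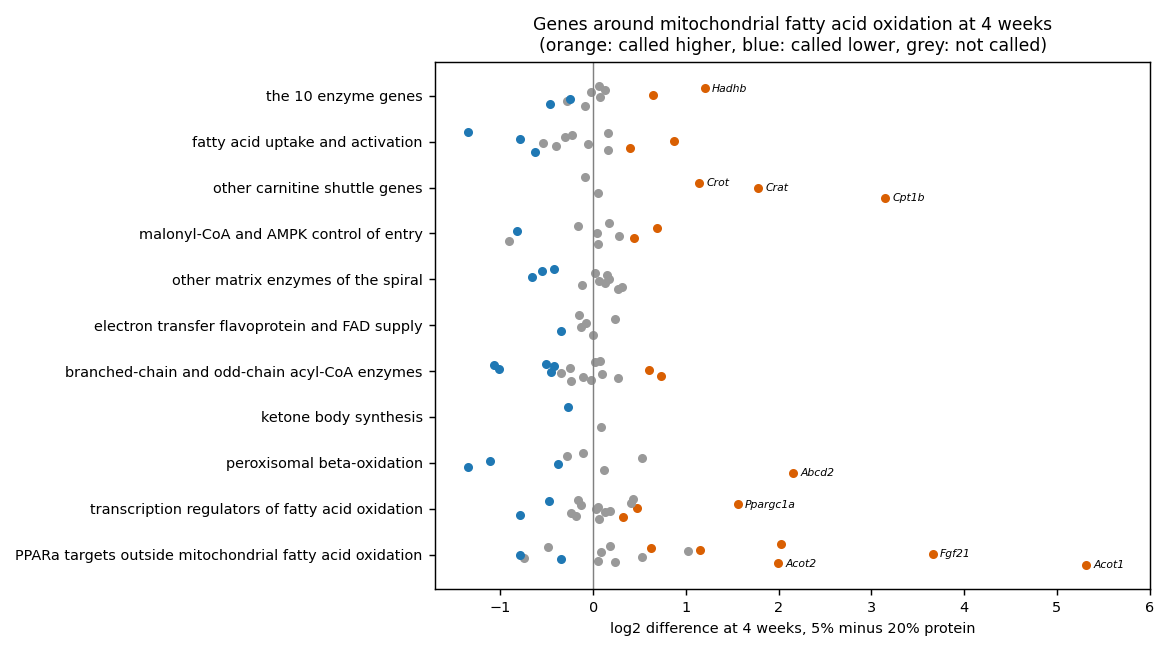
Log2 difference of 5% minus 20% protein at 4 weeks for the 10 enzyme genes (top row) and for each list of surrounding genes, with 1 point per gene. The positions of Acot1, Abcd2, Cpt1b and Prkab2 each rest on a group not shown to be above background, and that of Fgf21 on a group that reaches down to the array medians. The other carnitine genes Cpt1b, Crat and Crot lie to the right of nearly all of the 10 enzyme genes, whose differences run between -0.47 and 1.20.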

How the data were processed

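Liver RNA of 24 male Wistar rats was hybridised to Affymetrix whole-transcript arrays. The deposited values are intensity per probe set after RMA (background correction, quantile normalization and summary over probes), on the unlogged scale per the labels; no version of RMA stands in the submitters' processing notes. RMA gives no detection call, and the number of arrays limits the precision.

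Of 29214 probe sets, 18644 paired with 1 gene symbol and 962 with several; those with several or none were left out. The probe set with the highest mean log2 was kept per gene, which left 17245 genes. Log2 values of all arrays were fitted in 1 model with a mean for each of the 4 groups, using limma 3.58.1 (lmFit, eBayes) in R 4.3.3. Benjamini-Hochberg adjustment was over all genes, and genes were called below 0.05, two-sided. The comparisons were the diets at 1 week and at 4 weeks, the difference of these effects, and the weeks within each diet. Errors are standard errors, with n = 6 animals per group. The scripts were tested on simulated data. Promoters are RefSeq's (GRCr8). All 10 members, list members called with the 3 smallest adjusted p per direction, a few fixed genes and the 3 genes most like each member are named. The members and lists were chosen with earlier results of these data known. Alternatives were other normalizations, an offset of 16, other probe set rules, a filter on dim genes, array weights, robust estimation with a trend, a fit of the compared groups alone, well column, well row, run, and each animal left out.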

Additional observations from a re-analysis of the deposited data

Results flagged for a closer look

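In 40 gene and group combinations of 6 animals, 2 held an animal set apart from the other 5 by more of the group's range than Dixon's 95% critical value allows; chance gives about 1 in 20. Acadvl on 20% protein at 4 weeks was lowest in animal 29, at a log2 intensity of 10.75 with the next at 10.93, a gap of 0.644 of the range. Hadha on 20% protein at 4 weeks was highest in animal 63, at 11.52 with the next at 11.29, a gap of 0.653 of the range. Animal 63 also had the highest Hadhb (1451) and Cpt2 (1731) of its group.

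The diet difference of Hadhb was larger at 4 weeks than at 1 week by 0.66 (adjusted p = 0.0111, limma), and no other member was called in that test. What set these animals and this difference apart was not tested.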

How the results depend on the processing

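Hadhb on 5% against 20% protein at 4 weeks kept its direction and call under all alternatives tried, as did its diet by time difference, and Acadvl between weeks on 5% protein. Of the other called members, Hadhb at 1 week lost its call in the first run alone, Hadhb between weeks on 20% protein with run as a covariate, and Cpt2, Acadm and Acadvl at 4 weeks as given beside their values; the cause was not tested. Precision is limited by 6 animals per group and by the lack of a detection call in RMA values. No paired analysis was possible because each animal number occurs in a single group. The comparison of Hadhb with Hadha was not run under the dim gene filter, trend and robust estimation, array weights, the fit of compared groups alone, well column or well row, which act on the limma fit.

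With array weights 2 members were called at 1 week (Acadm added), 2 for diet by time and 2 between weeks on 20% protein (Cpt2 added in both). With run as a covariate 0 were called between weeks on 20% protein. Between weeks that setting, here and below, sets the first runs of the weeks against each other and cannot remove run. The second run alone gave 2 called members at 1 week and 2 at 4 weeks. Hadhb minus Hadha differed by 0.094 in the first run at 1 week (exact permutation p = 0.50), by 0.81 in the second (p = 0.10) and by 1.40 in the second run at 4 weeks (p = 0.20), where the runs are too small to pass, and by 0.91 in the first run at 4 weeks (p = 0.0476). When each animal was left out in turn, 1 to 2 members were called at 1 week (2 without animal 54 on 5% protein), 3 to 5 at 4 weeks, 1 to 2 for diet by time (2 without animal 23 on 5% or animal 63 on 20% protein), 1 to 2 between weeks on 20% protein (2 without animal 63) and 1 on 5% protein. Hadhb minus Hadha then ranged between 0.39 and 0.52 at 1 week and between 0.99 and 1.13 at 4 weeks.

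Over all genes, array weights moved the count called between weeks on 20% protein to 678 and for diet by time to 1540, against 435 and 991. Well row as a random block (correlation 0.146) gave 202 between weeks on 20% protein and 336 at 1 week, against 435 and 741. Run as a covariate gave 486 for diet by time and 58 between weeks on 20% protein, the latter for the first runs of the weeks. Single runs gave 1306 and 1464 genes at 1 week, and 2734 and 2124 at 4 weeks, against 741 and 4455. Leaving out 1 animal gave 418 to 769 at 1 week, 579 to 1371 for diet by time, 264 to 549 between weeks on 20% protein and 789 to 1655 on 5% protein.

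The sign turned for 14 results of members that were not called, most of them near 0, when 1 animal was left out. Between weeks on 5% protein the ranges were -0.077 to 0.032 for Acadl, -0.052 to 0.11 for Acadm and -0.16 to 0.048 for Slc25a20; on 20% protein they were -0.12 to 0.039 for Acadl, -0.086 to 0.037 for Acads and -0.019 to 0.10 for Etfdh. For the diets at 1 week they were -0.073 to 0.050 for Acads, -0.066 to 0.0095 for Acadvl and -0.046 to 0.067 for Cpt2. For the diets at 4 weeks they were -0.18 to 0.36 for Cpt1a, -0.087 to 0.035 for Etfdh and -0.035 to 0.18 for Slc25a20, and for diet by time -0.056 to 0.11 for Acadl and -0.012 to 0.12 for Hadha.

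Under other settings the sign of uncalled members also turned. Quantile normalization gave 0.0092 for Acadl and 0.015 for Acads between weeks on 20% protein, 0.021 for Acads at 1 week and -0.017 for Acadl by diet and time, and centred medians gave 0.0056 for Etfdh at 4 weeks. Array weights gave 0.013 for Acadl between weeks on 20% protein, -0.0089 for Cpt2 at 1 week, -0.0097 for Cpt1a at 4 weeks and -0.014 for Acadl by diet and time, and well row gave -0.023 for Cpt2 at 1 week. Run as a covariate gave -0.080 for Etfdh between weeks on 20% protein, -0.012 for Acadm on 5% protein and 0.076 for Etfdh at 4 weeks. The first run at 1 week gave 0.093 for Acadl, 0.32 for Acads, 0.083 for Acadvl, 0.085 for Cpt1a, -0.15 for Cpt2 and 0.041 for Slc25a20, and the second gave -0.072 for Hadha. The first run at 4 weeks gave 0.16 for Acadl and 0.30 for Etfdh, and the second gave -1.52 for Cpt1a, -0.047 for Hadha and -0.31 for Slc25a20.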
